A study of Rattus norvegicus with 6 samples.

Results

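Vitamin D and vitamin A act through closely related nuclear receptors, and the genes followed here carry these signals: the vitamin D receptor Vdr, the vitamin D-inactivating enzyme Cyp24a1, the shared partner receptor Rxra, the retinoic acid receptors Rara, Rarb and Rarg, the retinoic acid-binding proteins Crabp1 and Crabp2, the retinoic acid-synthesising enzyme Aldh1a2 and the retinoic acid-degrading enzyme Cyp26b1. They were chosen by gene symbol, and all 10 were found among the 17954 genes of the deposited tables. Their transcripts were measured by mRNA sequencing in condylar chondrocytes of the rat (Rattus norvegicus) lower jaw, which form the cartilage of the jaw joint, in 3 libraries of flat (2D) culture and 3 libraries of condylar cartilage organoids. The 2D cells were grown in DMEM with 20% fetal bovine serum and antibiotics, and the organoids in a chondrogenic medium whose composition is not given in the sources used here. Both were kept at 37 °C and 5% CO2, and no drug or genetic change is described for either group. Culture format and medium therefore differed together and cannot be told apart. Whether the organoid medium held serum is not given, nor are the amounts of vitamin A and vitamin D in either medium. Strain, sex and age of the rats and the age of the organoids are also not given. Nor is it known whether replicate libraries stem from different rats or culture dishes, so p-values measure only the scatter among these libraries, which may be technical.

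The active form of vitamin D enters the nucleus and binds the vitamin D receptor, which pairs with a retinoid X receptor on DNA. One of the best known genes switched on by this pair is Cyp24a1, whose product destroys the hormone and so closes a feedback loop. Retinol is carried in blood by Rbp4, oxidised in cells to retinal and then, by aldehyde dehydrogenases such as Aldh1a2, to retinoic acid. Crabp1 and Crabp2 bind retinoic acid in the cytoplasm, the retinoic acid receptors act with retinoid X receptors in the nucleus, and the Cyp26 enzymes clear the acid. In developing mouse cartilage retinoic acid signalling holds back chondrocyte differentiation, and vitamin D is known in cartilage and bone for its part in mineralisation.

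The receptors recognise repeated 6-base cores on DNA, and a stretch of the Rarb locus shows such an element. Rarb is itself a classical retinoic acid target through a direct repeat with a 5-base spacer. RefSeq promoter windows of the GRCr8 assembly, from 250 bases before to 50 bases after a start, were available for 9 of the 10 genes (10 windows, as Rarg has more than 1), and not for Cyp24a1. The consensus core is AGGTCA. The search also took AGTTCA as a core, together with the form of each that begins with a guanine, GGGTCA for the consensus and GGTTCA for the variant. Cores were searched on both strands, in any pair, as direct repeats with 1, 2, 3, 4 or 5 bases between them. The 5-base spacer occurred in the Rarb window and in 0.382% of all 33469 windows. The Rarb repeat was known beforehand and both of its cores were among those searched, so this match is not a finding of the search. In the line below the cores of the Rarb repeat are in capitals. It lies from 25 to 41 bases after the start, at chr15:11336410-11336438 with its flanks (plus strand).
Rarb: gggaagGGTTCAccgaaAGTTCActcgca
The spacings of 1, 2, 3 and 4 bases were not matched in the windows of these genes, and were found in 0.233%, 0.17%, 0.0986% and 0.0807% of all windows. The 120 bases before the start are shown for Vdr, the member with the largest rise, and for Crabp1 and Crabp2, which were both lower in every organoid library. Capitals mark GC boxes (GGGCGG, either strand, a pair of which adjoin in Crabp2, and none of those shown share a base) and the TATA box (TATAAA, either strand). The windows are chr7:130916758-130916877 (minus strand), chr8:64047311-64047430 (plus strand) and chr2:175714742-175714861 (plus strand).
Vdr: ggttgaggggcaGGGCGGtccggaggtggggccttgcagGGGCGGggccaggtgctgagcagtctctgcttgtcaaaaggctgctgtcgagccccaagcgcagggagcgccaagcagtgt
Crabp1: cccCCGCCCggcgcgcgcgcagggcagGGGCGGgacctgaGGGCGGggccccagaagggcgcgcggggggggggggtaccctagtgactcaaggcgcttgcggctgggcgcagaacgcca
Crabp2: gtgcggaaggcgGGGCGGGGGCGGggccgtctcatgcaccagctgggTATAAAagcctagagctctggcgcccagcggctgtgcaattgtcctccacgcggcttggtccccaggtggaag
A GC box stood in 7 of the 10 windows of these genes and in 33.1% of all windows. The TATA box stood in the window of Crabp2 and in 14.2% of all windows. Such matches describe letters in a window and do not show that a factor binds there.

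Library totals were 18592574 to 26472447 estimated counts. Levels are given as CPM, read counts scaled to library size with TMM factors. A count of 0 allows up to 3 counts, which is 0.0917 to 0.18 CPM depending on the library. Organoid libraries differed more from each other than 2D libraries did, with Spearman correlations of log2 CPM of 0.847 to 0.913 against 0.992 to 0.994. The summed level of 15 chondrocyte markers was 2750 to 2800 CPM in 2D culture and 15100 to 112000 CPM in organoids, and 11 of the 12 tested markers rose. Cnmd was the marker at 0 counts in 2D culture. The 7 osteoblast markers summed to 260 to 267 and 12700 to 20700 CPM, and all 7 rose. The 5 smooth muscle and myofibroblast markers summed to 3610 to 3890 and 33.9 to 47.1 CPM, and all 5 fell. Markers of osteoclasts and macrophages (6 genes) summed to 3.94 to 4.97 and 15 to 133 CPM, with Acp5 higher and Tnfrsf11a at 0 counts in organoids, Ptprc at 0 counts in 2D culture and Adgre1 at 0 counts in both. Endothelial, epithelial and glial markers stayed at or under 3.3, 0.825 and 1.83 summed CPM in every library. The part of these shifts in the results below was not tested.

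The comparison asks how the transcripts of these genes differ between organoid and flat culture. Vdr, Rxra, Rara and Rarg rose in organoids. Rarb, Crabp1, Crabp2 and Cyp26b1 did not pass the threshold. Cyp24a1 and Aldh1a2 had 0 counts in all 6 libraries and could not be tested, so 8 of the 10 passed the filter on low counts. The test was edgeR's quasi-likelihood F-test with p-values adjusted over all 13052 genes tested, and a gene was called below 0.05. Of the 8 members tested, 4 were called, where 27.5% of all genes tested were. All 4 were higher, where 14.9% of all genes were called higher, and 0 were lower, where 12.6% of all genes were. At an unadjusted p under 0.05, 1 member was lower (Crabp1), and DESeq2 and limma-voom each called it lower. The libraries of the groups did not overlap for 6 of the 8, 4 higher and 2 lower, where 53.5% of all genes did not overlap, 23.4% higher and 30.2% lower. The median log2 fold change (organoid over 2D culture) of the 8 was 0.57, and that of all genes tested was -0.03. When the libraries were scaled by their totals alone the median of all genes moved by -0.61 on the log2 scale, and the split of all calls went from 1944 higher and 1650 lower to 1063 higher and 3529 lower. Vdr, Rxra and Rara were then still called, with log2 fold changes of 1.66, 0.95 and 1.09 (edgeR adjusted p = 0.0107, 0.0334 and 0.0175).

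**Figure D1:**
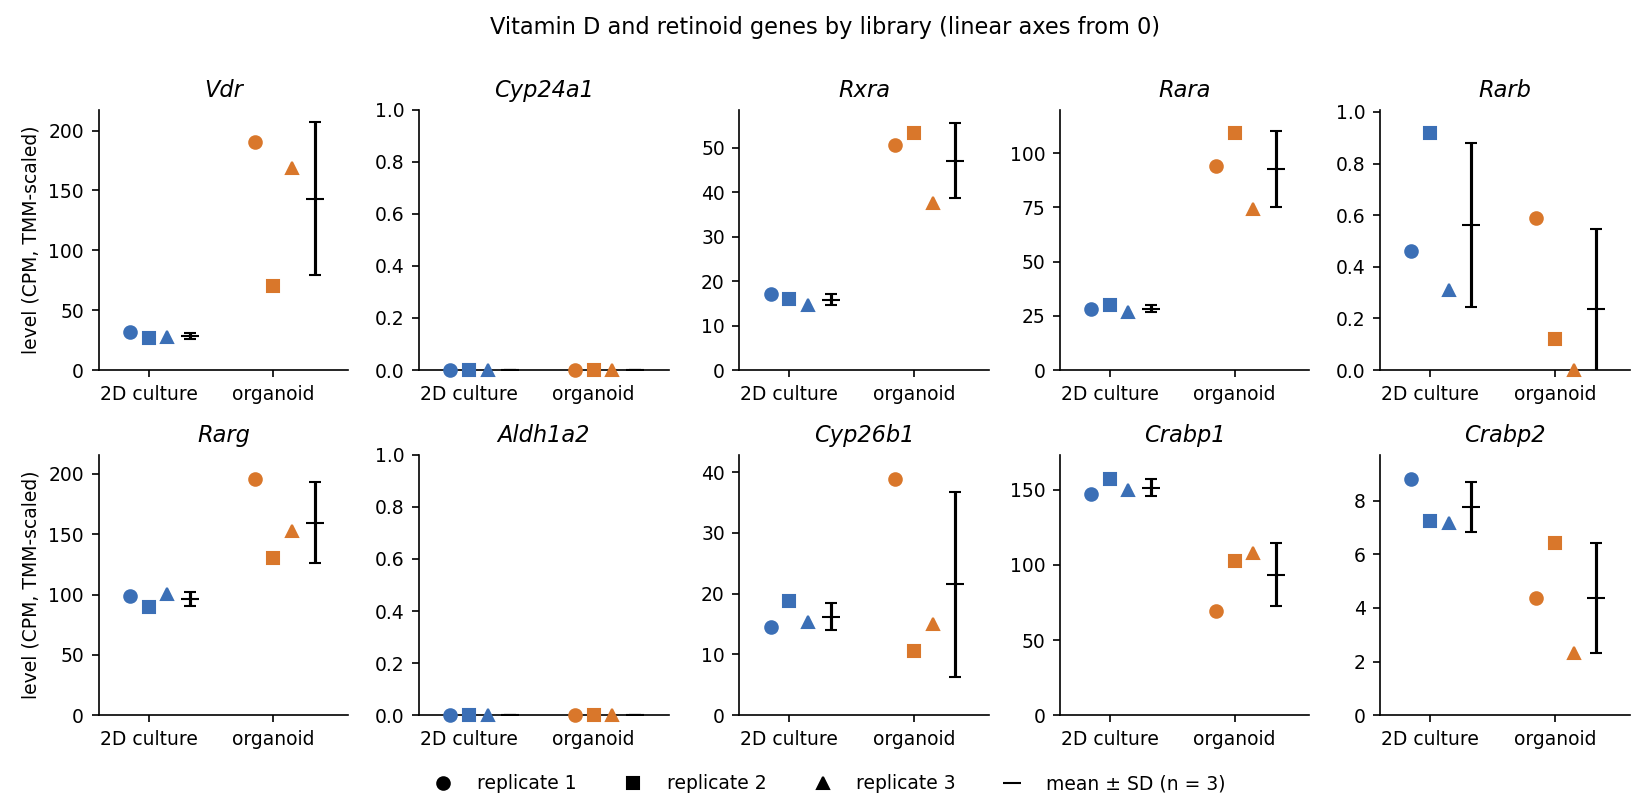
Level of each gene in every library in CPM after TMM scaling (linear axes from 0), with 2D culture in blue, organoids in orange, symbols for replicates and bars for the mean ± SD (n = 3, cut at 0 for Rarb). The organoids lie above 2D culture for Vdr, Rxra, Rara and Rarg and below it for Crabp1 and Crabp2, the groups overlap for Rarb and Cyp26b1, and Cyp24a1 and Aldh1a2 are at 0.

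**Figure D2:**
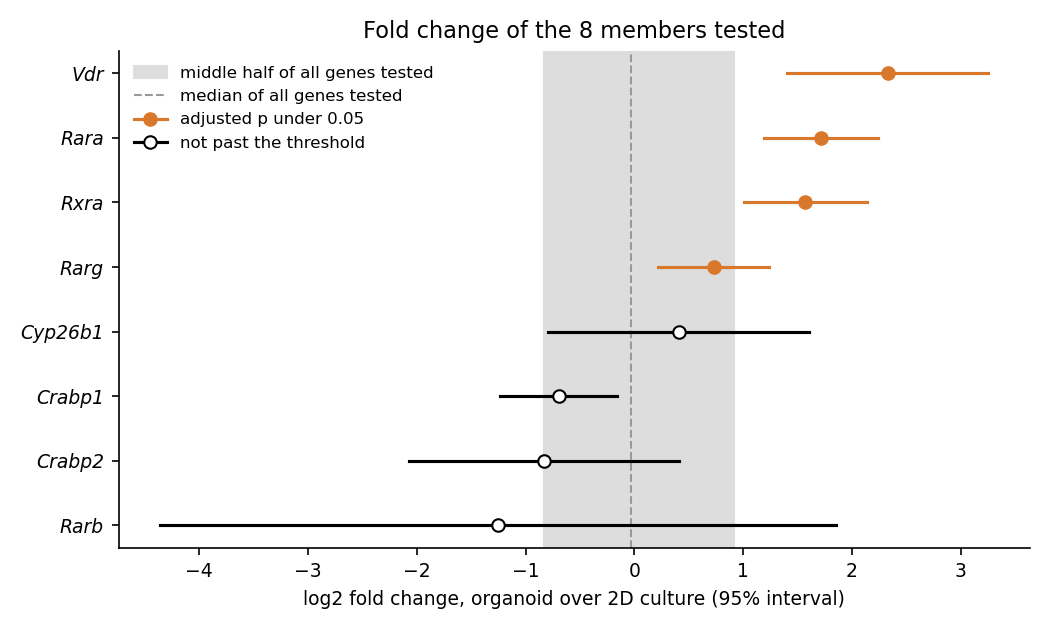
Log2 fold change (organoid over 2D culture) with its 95% interval for the 8 genes tested, filled where the adjusted p was under 0.05, beside the middle of the distribution over all genes tested (grey). Vdr at 2.33, Rara at 1.71 and Rxra at 1.57 lie above the grey band, and Rarg at 0.73 lies inside it.

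Vdr (gene ID 24873), the receptor of active vitamin D, showed the largest rise. Its level was 31.4, 26.6 and 27.6 CPM in 2D culture 1, 2 and 3 and 190.1, 70.2 and 169.1 CPM in organoid 1, 2 and 3. Every organoid stood above every 2D library, and organoid 2 lay well under the other organoids. The means were 28.5 ± 2.58 and 143 ± 64 CPM (SD, n = 3), a log2 fold change of 2.33 ± 0.39 (SE, edgeR adjusted p = 0.0075) or 5.02-fold. Organoid 2 was also the organoid with the lowest summed chondrocyte markers, at 15080 CPM against 112200 in organoid 1 and 35660 in organoid 3. The smooth muscle and myofibroblast sum was lowest there too. The osteoblast sum was lowest in organoid 3 (12670 CPM against 20710 in organoid 1 and 14230 in organoid 2), as was that of osteoclasts and macrophages. A link of any of these sums to Vdr was not tested. Without organoid 2 the log2 fold change of Vdr was 2.70 (adjusted p = 0.000362). More cells that carry a transcript and more transcript per cell cannot be told apart in these bulk libraries, here and for the genes that follow.

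Cyp24a1 (gene ID 25279), the 24-hydroxylase that inactivates vitamin D, had 0 counts in each of the 3 2D and 3 organoid libraries. A count of 0 allows a level of up to 0.0917 CPM in the deepest library after scaling and up to 0.18 CPM in the shallowest. No difference in Cyp24a1 was detectable at this depth, in libraries where the receptor gene Vdr had between 869 and 3573 counts.

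Rxra (gene ID 25271), the retinoid X receptor that partners both Vdr and the retinoic acid receptors, rose with less scatter. It stood at 17.0, 15.9 and 14.7 CPM in 2D culture and at 50.6, 53.2 and 37.5 CPM in organoids. The groups were well apart, and organoid 3 was the lowest organoid. The log2 fold change was 1.57 ± 0.24 (edgeR adjusted p = 0.00527), or 2.97-fold. The other retinoid X receptor genes rose as well: Rxrb went from 3.77 ± 0.445 to 12.6 ± 3.75 CPM (1.74 ± 0.42, edgeR adjusted p = 0.0226) and Rxrg from 0.799 ± 0.194 to 8.64 ± 4.25 CPM (3.43 ± 0.65, adjusted p = 0.0112). Both of these lost their calls when any 2D library was left out (adjusted p up to 0.119 and 0.0715), and Rxrb also lost its call with total library size. Without 2D culture 1, 2 or 3 the log2 fold changes were 1.65, 1.82 and 1.71 for Rxrb and 3.55, 3.23 and 3.47 for Rxrg. The calls among all genes also fell in these leave-out fits, from 3594 to between 1109 and 1211.

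Among the retinoic acid receptors, Rara and Rarg rose and Rarb was close to the detection limit. Rara (gene ID 24705) had 28.0, 30.0 and 26.8 CPM in 2D culture and 94.2, 109.1 and 74.4 CPM in organoids. Its groups did not overlap, and organoid 2 was the highest organoid where it had been the lowest for Vdr. The log2 fold change was 1.71 ± 0.22 (edgeR adjusted p = 0.00293), or 3.27-fold. Rarg (gene ID 685072), the receptor best known from mouse growth plate cartilage, had 98.4, 89.9 and 100.8 CPM in 2D culture and 196.2, 130.6 and 152.4 CPM in organoids. All organoids were above all 2D libraries, by a smaller step than for Rara. Its log2 fold change of 0.73 ± 0.22 (1.66-fold) passed narrowly (edgeR adjusted p = 0.0457). Rarg lost its call in 8 of 14 other settings, among them without any of 2D culture 1, 2 and 3 (adjusted p = 0.173, 0.195 and 0.169), without organoid 1 or organoid 3 (adjusted p = 0.0528 and 0.0566), without a filter on low counts (0.0734) and, at a log2 fold change of 0.08, when scaled by library totals (adjusted p = 0.759).

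Rarb (gene ID 24706), the receptor gene whose direct repeat is printed above, had few reads in every library. The 2D libraries held 15, 30 and 10 reads of it, and the organoids 10, 2 and 0. In CPM these are 0.46, 0.917 and 0.309 against 0.589, 0.12 and 0. The groups overlapped, since organoid 1 lay above 2D culture 1 and 2D culture 3 in CPM. The log2 fold change of -1.25 did not pass (95% interval -4.36 to 1.86, edgeR adjusted p = 0.515), an interval that spans both a fall and a rise. Without organoid 1 the log2 fold change was -3.22 (adjusted p = 0.117) and without organoid 3 it was -0.66 (adjusted p = 0.608). Pooled over libraries, 55 reads in 2D culture and 12 in organoids gave a level 2.57-fold lower in organoids (95% exact interval 1.36 to 5.27). That interval covers counting error only and leaves out the scatter among libraries, where 10 of the 12 organoid reads came from organoid 1.

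Of the enzymes that make or clear retinoic acid among these genes, Aldh1a2 could not be tested and Cyp26b1 did not pass. Aldh1a2 (gene ID 116676), the main retinoic acid-synthesising enzyme of the vertebrate embryo, had 0 counts in all 6 libraries, with the same limits of 0.0917 to 0.18 CPM as Cyp24a1. Cyp26b1 (gene ID 312495), the retinoic acid-clearing enzyme needed for normal limb and skeletal development in the mouse, stood at 14.5, 18.8 and 15.4 CPM in 2D culture. In organoids it stood at 38.9, 10.6 and 15.1 CPM. Organoid 1 was above every 2D library and organoid 2 below every one, a 3.66-fold range within the organoids against 1.29-fold in 2D culture. The log2 fold change of 0.41 ± 0.50 did not pass (95% interval -0.79 to 1.61, edgeR adjusted p = 0.586), and its sign turned without organoid 1 (-0.31) and when scaled by library totals (-0.32). The other clearing enzymes Cyp26a1 and Cyp26c1 had 0 counts in every library.

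Crabp1 and Crabp2, the cytoplasmic carriers of retinoic acid among these genes, were lower in every organoid library than in any 2D library. Neither passed the threshold, and 30.2% of all genes tested were likewise lower without overlap. Fabp5, of a pathway list below, was higher in every organoid without passing (log2 fold change 0.82, edgeR adjusted p = 0.142). Crabp1 (gene ID 25061) stood at 147.1, 157.5 and 149.8 CPM in 2D culture and 69.3, 102.6 and 108.2 CPM in organoids. The 2D libraries were close together and organoid 1 was the lowest library. The log2 fold change was -0.70 ± 0.23 (95% interval -1.23 to -0.16, unadjusted p = 0.0181, edgeR adjusted p = 0.0601). Crabp1 passed with DESeq2 (adjusted p = 0.0241), limma-voom (0.0392) and total library size (0.0184), and without organoid 2 (0.0437) or organoid 3 (0.0428). It did not pass in the other 9 of 14 settings. Among these were the fits without 2D culture 1, 2 or 3 (edgeR adjusted p = 0.17, 0.189 and 0.179) and with replicate number as a block (0.1). Relative to the median of all genes, its log2 fold change was -0.635 with total library size and -0.665 with TMM. Scaling moves all genes by similar amounts, so these values lie close whatever the gene. Crabp2 (gene ID 29563), which hands retinoic acid to its receptors, had 8.83, 7.25 and 7.18 CPM in 2D culture and 4.36, 6.43 and 2.32 CPM in organoids. Here organoid 3 was lowest and organoid 2 lay just under the 2D libraries. The log2 fold change was -0.83 ± 0.52 (95% interval -2.07 to 0.41, edgeR adjusted p = 0.281), and no other setting brought it past the threshold (adjusted p = 0.0801 to 0.546).

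**Figure D3:**
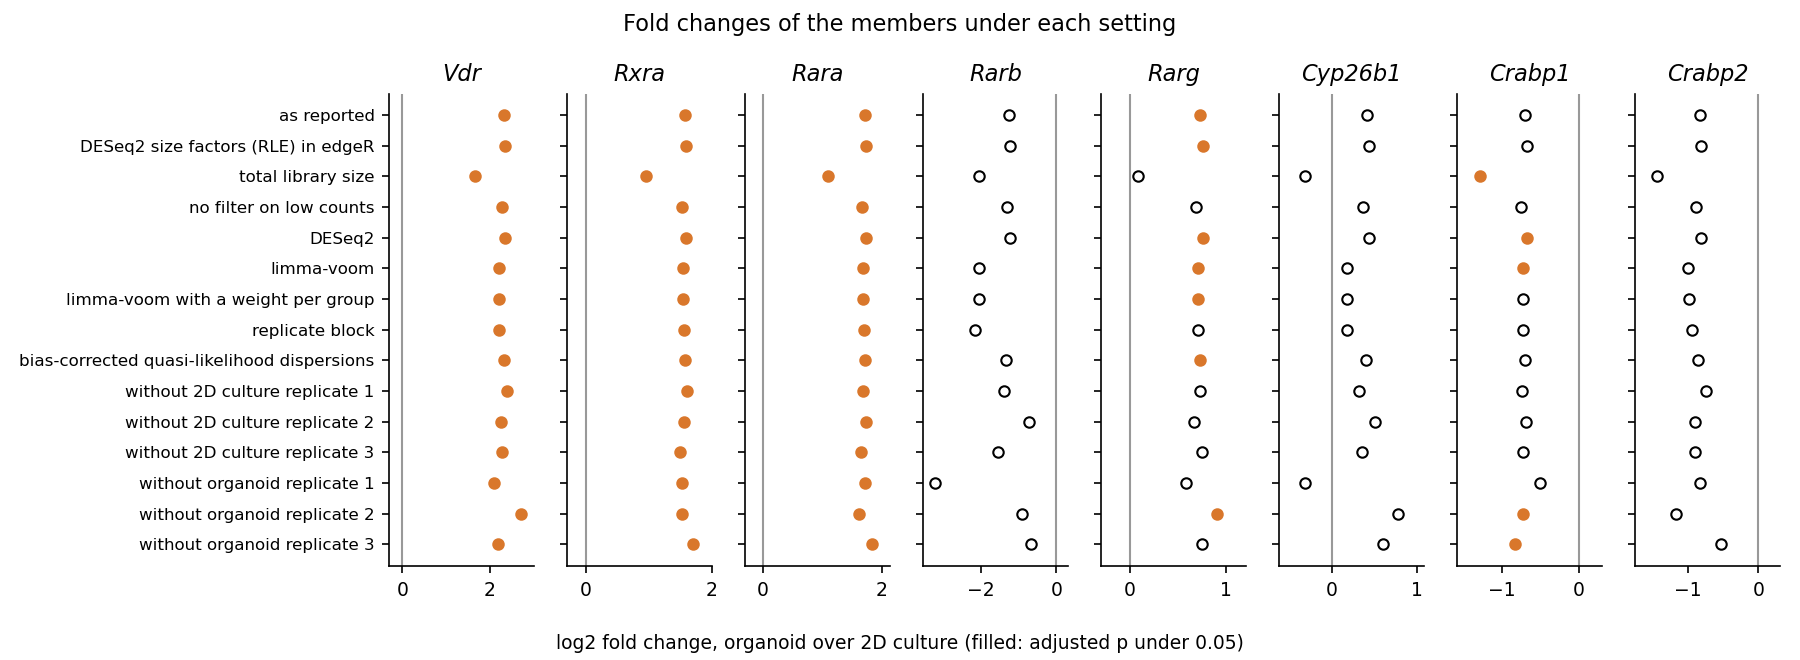
Log2 fold change (organoid over 2D culture) of the 8 genes tested under each setting, filled where the adjusted p was under 0.05. Vdr, Rxra and Rara are filled under every setting, Rarg under 7 of 15 and Crabp1 under 5 of 15, and Cyp26b1 has points on both sides of 0.

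Ratios of reads of a pair of genes within a library do not depend on how libraries are scaled, and 3 such ratios were computed. Rara had 0.285, 0.333 and 0.266 reads per Rarg read in 2D culture and 0.48, 0.835 and 0.488 in organoids. Every organoid thus had more Rara reads per Rarg read than any 2D library (log2 difference 0.985, two-sided exact permutation p = 0.1, adjusted p = 0.3 over the 3 ratios). With 3 libraries against 3, 0.1 is the smallest p that this test can give. Vdr had 1.85, 1.67 and 1.88 reads per Rxra read in 2D culture and 3.76, 1.32 and 4.51 in organoids. Organoid 2 lay below 2D culture and the other organoids above it (exact permutation p = 0.4, adjusted p = 0.6). Crabp1 had 16.7, 21.7 and 20.9 reads per Crabp2 read in 2D culture and 15.9, 16 and 46.7 in organoids, with overlapping groups (exact permutation p = 1.0, adjusted p = 1.0).

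**Figure D4:**
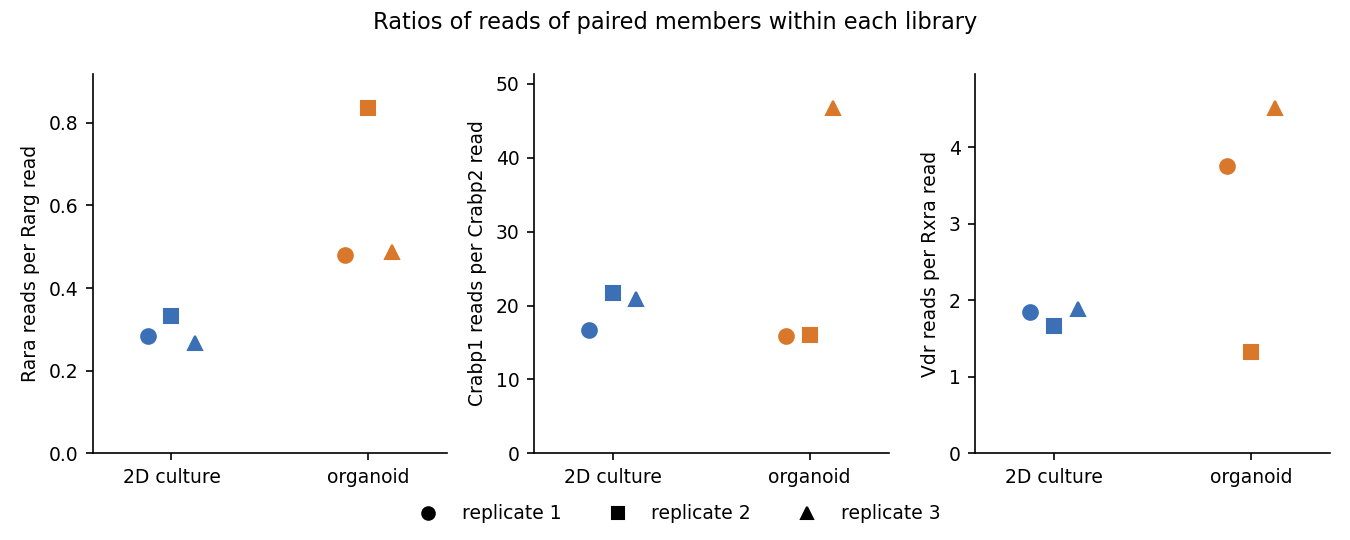
Reads of one gene per read of another in each library (linear axes from 0), with 2D culture in blue, organoids in orange and symbols for replicates. Rara per Rarg is higher in all organoids, while organoid 2 stands apart for Vdr per Rxra and organoid 3 for Crabp1 per Crabp2.

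Within the organoids these genes did not share an order. Vdr, Rarg and Cyp26b1 were highest in organoid 1 and lowest in organoid 2. Rara, Rxra and Crabp2 were highest in organoid 2 and lowest in organoid 3. Crabp1 was highest in organoid 3 and lowest in organoid 1. The coefficient of variation in organoids was 17.9% for Rxra, 18.8% for Rara, 20.9% for Rarg and 22.5% for Crabp1, and 44.7% for Vdr, 47% for Crabp2 and 70.7% for Cyp26b1. In 2D culture the same 7 genes ran from 3.56% to 13.8%.

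The likeness of other genes was measured as the root mean square distance of log2 CPM profiles, each centred on its own mean over the 6 libraries, which share the split into groups. Among 12233 candidate genes, Rara was among the 3 nearest to Rxra (distance 0.0999, Pearson r = 0.996), after Hmbox1 (0.0478) and Sipa1l3 (0.0815). The nearest to Rara were Arl13b (0.0484), Sipa1l3 (0.0833) and LOC108350082 (0.0864). The nearest to Vdr were Fchsd2 (0.11), Tmem106a (0.154) and Disp1 (0.163), and those to Rarg were MGC94199 (0.0443), Shc1 (0.0552) and Susd6 (0.0594).

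Other genes of these pathways were read from 7 lists. They held 78 genes, of which 72 were found in the tables and 54 were tested. Of the 54, 15 rose and 4 fell, where 14.9% and 12.6% of all genes tested did so, and the median log2 fold change was 0.37. When 2D culture 1, 2 or 3 was left out, 9 of them were called each time. The calls among all genes then fell from 3594 to 1114, 1211 and 1109, of 13395, 13366 and 13393 tested. With total library size 11 of the list genes rose and 11 fell, where 1063 of all genes rose and 3529 fell.

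The list of vitamin D receptor targets leaves out Cyp24a1, a well known target, which had 0 counts in all 6 libraries. Of the 9 tested target genes of the vitamin D receptor, 6 rose and 3 did not pass, where 14.9% of all genes tested were called higher. The 3 all had lower estimates in organoids. Their log2 fold changes were -1.04 for Slc8a1, -0.97 for Enpp1 and -0.81 for Igfbp3 (edgeR adjusted p = 0.0923, 0.15 and 0.331). Bglap, the bone matrix protein osteocalcin, stood at 0.521, 1.22 and 0.495 CPM in 2D culture and 779.7, 1473 and 1465 CPM in organoids (10.69 ± 0.62, edgeR adjusted p = 0.000253). Phex, a peptidase of bone cells that acts on phosphate balance, went from 0.758 ± 0.229 to 652.8 ± 87.2 CPM (9.74 ± 0.38). Spp1, the bone matrix phosphoprotein osteopontin, went from 423.6 ± 30 to 8382 ± 1725 CPM (4.31 ± 0.30). Bglap and Phex are also osteoblast markers, all of which rose, so this list is not independent of that shift. The list holds no direction in which the receptor moves each gene, so a rise here is no measure of receptor activity. The calcium channel gene Trpv5 and the antimicrobial peptide gene Camp, a target known from human cells, had 0 counts in every library. Trpv6, the intestinal calcium channel, had 1, 6 and 6 counts in 2D culture and 0 in each organoid. In the list of vitamin D uptake and activation 1 of 6 tested genes fell, where 12.6% of all genes tested were called lower. Cubn, an uptake receptor for the vitamin D carrier, had 96 counts in 2D culture and 2 in organoids, a level 26.9-fold lower in organoids (95% exact interval 7.25 to 225, counting error only), and lost its call without any of 2D culture 1, 2 and 3 (adjusted p up to 0.117) and in limma-voom when each group had its own weight. Cyp27b1, which makes the active hormone, had 56, 54 and 50 counts in 2D culture and 32, 25 and 0 in organoids, and did not pass (log2 fold change -0.54, edgeR adjusted p = 0.797).

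Of 10 tested genes of retinol transport, storage and oxidation, 1 rose, 2 fell and 7 did not pass. Among all genes tested 14.9% were called higher and 12.6% lower. Rbp4, the blood carrier of retinol, stood at 4.17, 3.97 and 4.08 CPM in 2D culture and 257.7, 36.4 and 88.7 CPM in organoids (4.97 ± 0.75, edgeR adjusted p = 0.00548). All organoids were far above 2D culture, and organoid 2 was again the lowest. Without organoid 1, the highest, the log2 fold change was 3.97 (adjusted p = 0.00594). Retsat, the retinol saturase, went from 118.2 ± 5.88 to 32.3 ± 18.4 CPM (-1.87 ± 0.43, adjusted p = 0.0203), and the alcohol dehydrogenase Adh7 from 57.3 ± 3.1 to 26.4 ± 10.6 CPM (-1.12 ± 0.33, adjusted p = 0.0447). Both lost their calls without any of 2D culture 1, 2 and 3, Retsat also without organoid 3 (adjusted p up to 0.0795) and Adh7 also without organoid 1 (up to 0.145). Among the aldehyde dehydrogenases related to Aldh1a2, Aldh1a1 had 3, 0 and 3 counts in 2D culture and 1, 0 and 3 in organoids. Aldh1a3 had 22, 25 and 21 counts in 2D culture and 96, 2 and 0 in organoids, so its organoid reads came almost wholly from organoid 1 (log2 fold change 1.46, edgeR adjusted p = 0.574). The retinol uptake receptor Stra6 had 0 counts in every library.

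Of 10 tested retinoic acid target genes 3 rose, 1 fell and 6 did not pass. Among all genes tested 14.9% were called higher and 12.6% lower. The list leaves out Rarb, itself a retinoic acid target, which did not pass (log2 fold change -1.25, edgeR adjusted p = 0.515). Tgm2, a transglutaminase that crosslinks proteins, stood at 1.01, 0.703 and 0.588 CPM in 2D culture and 130.1, 37.1 and 77.1 CPM in organoids (6.72 ± 0.60, edgeR adjusted p = 0.0009). Zbtb16, a zinc finger transcription factor, went from 0.215 ± 0.052 to 8.04 ± 7.28 CPM (5.19 ± 1.04, adjusted p = 0.0136), with a log2 fold change of 4.28 without organoid 2, and its call was lost without any of 2D culture 1, 2 and 3 (adjusted p up to 0.0779). Rarres2, which encodes the chemoattractant chemerin, had 6 counts in organoid 1 and 0 in organoids 2 and 3, and 3.72 ± 0.212 CPM in 2D culture. Its level was 33.8-fold lower in organoids (95% exact interval 15.4 to 92.8, counting error only), a value that rests on the 6 reads of organoid 1. Without organoid 1 no organoid read remained, and the level was at least 46.7-fold lower, taking 3 counts over organoids 2 and 3 together as the floor. Reads of it were shared with other genes in 2 libraries, and its call (edgeR adjusted p = 0.0476) was lost without any of 2D culture 1, 2 and 3 and without organoid 2 (up to 0.157), and without a filter on low counts. Stra8 and Cyp26a1 had 0 counts in every library. With organoid 2 left out 7 members of this list were called, 4 higher and 3 lower, and with any 2D library left out 1 was. Over all genes 5321 were called without organoid 2, and 1109 to 1211 without a 2D library.

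Of 9 tested receptors that can pair with retinoid X receptors, 2 rose and 7 did not pass, where 14.9% of all genes tested rose. Ppard, a fatty acid sensor, stood at 3.62, 4.68 and 4.24 CPM in 2D culture and 29.8, 70.1 and 30.5 CPM in organoids (3.38 ± 0.43, edgeR adjusted p = 0.00305). Thra, a thyroid hormone receptor, went from 7.43 ± 1.67 to 43.9 ± 19.2 CPM (2.56 ± 0.40, adjusted p = 0.00583), with fractional counts in 5 libraries, so that its reads were shared with other genes and its value is uncertain. Of 9 coregulators of nuclear receptors 1 rose and 8 did not pass, against the same 14.9% of all genes tested. Ncor1, a corepressor that holds unliganded receptors silent, went from 37.7 ± 4.76 to 110.3 ± 49.7 CPM (1.55 ± 0.35, adjusted p = 0.0194), and lost its call without any of 2D culture 1, 2 and 3 (adjusted p up to 0.0978) and with total library size.

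**Figure D5:**
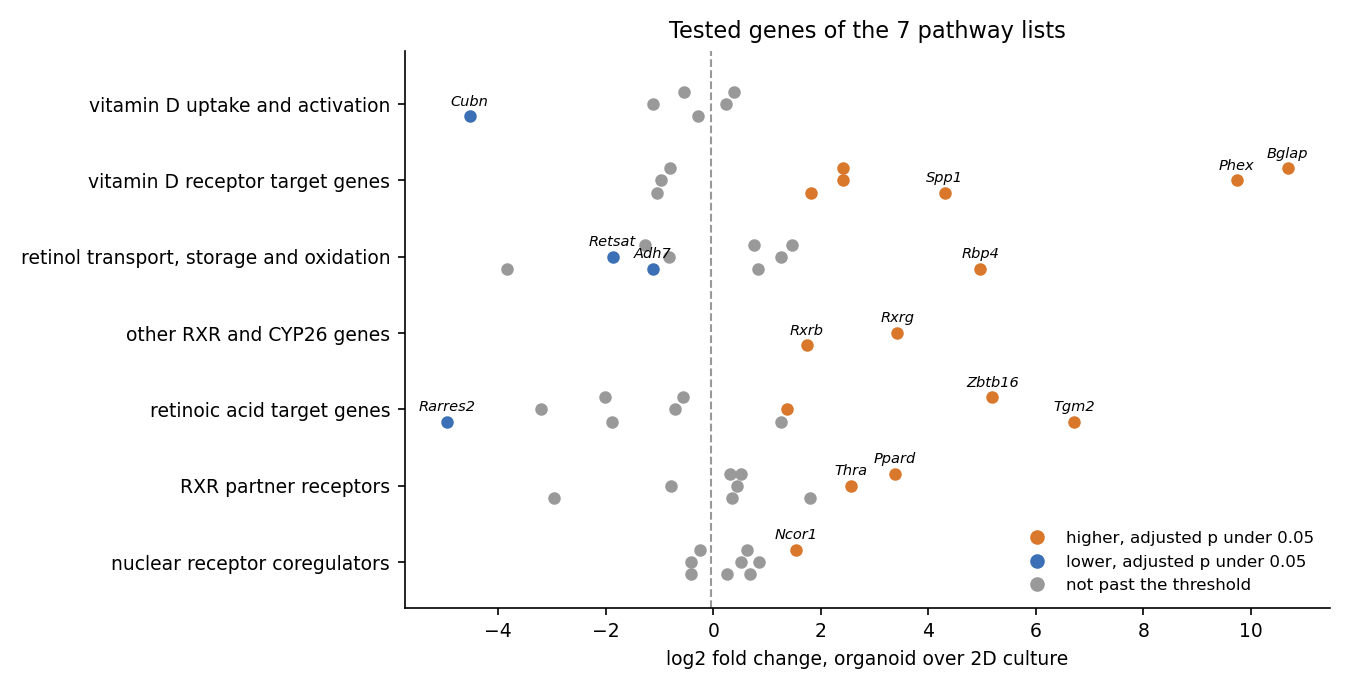
Log2 fold change (organoid over 2D culture) of the tested genes in each of the 7 pathway lists, coloured by direction where the adjusted p was under 0.05, with the median of all genes tested as a dashed line. Bglap and Phex at 10.69 and 9.74 stand farthest to the right, and Cubn and Rarres2 farthest to the left, each with few organoid reads.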

How the data were processed

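The authors deposited estimated counts per gene for each library, which were not normalised, and these were rounded to whole numbers here. All 10 members had whole values in every library. Per the submitters' processing notes HISAT, HISAT2, Bowtie2, RSEM and DESeq2 were used. For their versions and roles, and for the genome build, annotation and strand setting, nothing is given in the sources used here. Groups and replicate numbers come from the sample titles.

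The analysis used edgeR 4.0.16 in R 4.3.3, with filterByExpr (minimum count 10), TMM factors (1.23 to 1.27 in 2D culture, 0.662 to 0.896 in organoids), the robust quasi-likelihood F-test and Benjamini-Hochberg adjustment over all genes tested. Standard errors were derived from the F statistic. Limma 3.58.1 and DESeq2 1.42.0 served as alternatives, and SciPy 1.17.1 gave the permutation tests. All pairs of replicates differed by more than sampling noise (chi-square of at least 9.1 times its degrees of freedom). The steps were run on simulated data in which both groups had the same scatter. The unequal spread of the groups here (median SD of log2 CPM 0.137 in 2D culture and 0.689 in organoids) was not simulated. Gene IDs of all 10 members matched RefSeq (GRCr8), which supplied the promoter sequences.

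The members and lists were chosen with earlier results of these data known. All members are named, and from each pathway list the called genes that changed most, up to 3, and the called gene that changed most the other way. Pathway genes that are named without a call, or at 0 or few counts, were chosen after their values were seen. For likeness the 3 nearest tested genes of at least 1 CPM are given for each called member. Intervals and limits from counts cover counting error only.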

Additional observations from a re-analysis of the deposited data

How the results depend on the processing

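The number of genes called, 3594, ran from 1109 to 5321 when 1 library was left out and from 2730 to 4925 under the other settings. Leaving out a 2D library gave 1109 to 1211, and leaving out an organoid 4589 to 5321. A call lost without a 2D library is therefore to be read beside a drop over all genes. The number of members called, 4, ran from 3 to 5 both with 1 library left out and under the other settings. That of pathway genes, 19, ran from 9 to 25 with 1 library left out and from 16 to 24 otherwise. Vdr, Rxra and Rara kept their calls in all 14 alternatives, 1 of which (the bias-corrected dispersions of edgeR) was chosen after seeing the data, with adjusted p up to 0.0498, 0.0484 and 0.0318 and log2 fold changes of 1.66 to 2.70, 0.95 to 1.70 and 1.09 to 1.84. Cyp26b1 reversed with total library size (-0.32) and without organoid 1 (-0.31), over a leave-out range of -0.31 to 0.78. The cause was not tested. Relative to the median of all genes, total library size gave 0.73 for Rarg against 0.76 with TMM, and 0.32 against 0.44 for Cyp26b1. A change of scaling moves all genes by similar amounts, so such values cannot show that a result withstands it. Of the 15 pathway genes named by the rule, 7 were called in every leave-out fit. Whether same-numbered libraries of the groups are paired is not known. Correlations of deviations between same-numbered libraries were 0.0606, 0.187 and 0.0207, and not every library was nearest to its own number. With 3 libraries per group such values cannot decide whether there is a pairing. With the replicate block 3 members, 16 pathway genes and 2730 genes in all were called. Rarg (adjusted p = 0.0966) and the pathway genes Cubn, Rxrb and Rarres2 were not among them. At this depth a count of 0 for Cyp24a1 and Aldh1a2 leaves levels under 0.0917 to 0.18 CPM undetected.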
